A study of Mus musculus with 6 samples.

Results

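The genes described here are 10 members of the AP-1 and immediate early group, namely Fos, Fosb, Fosl1, Fosl2, Jun, Junb, Jund, Egr1, Ier2 and Ier3. They were chosen by gene symbol, and they make up 10 of the 25067 rows of a table of normalized counts from mouse colonic organoids. The organoids carried floxed alleles of both atypical protein kinase C (aPKC) genes, Prkci and Prkcz, together with Villin-CreERT2, a Cre recombinase that 4-hydroxytamoxifen (4-OHT) activates and that the Villin promoter drives in intestinal epithelium. They came from C57BL/6 mice given as 8 weeks old, and the crypt cultures grew with WNT3A, EGF, Noggin, R-spondin 1 and B27. On passage they received 4-OHT or its vehicle, ethanol, and RNA was taken 3 days later, with 3 libraries per group. The vehicle group is described as wild type in the labels but carries the same floxed alleles and the same Cre. No library came from organoids that received 4-OHT but lacked Cre or the floxed alleles, so loss of aPKC, activity of Cre and 4-OHT itself cannot be told apart in any difference below. Nothing in the labels says that the libraries came from separate animals or cultures, so the p-values measure the spread between these libraries, which may be technical.

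AP-1 is a family of dimeric transcription factors of the basic leucine zipper class. A Jun protein pairs with another Jun protein or with a Fos protein, and Fos proteins need a partner to bind DNA. Many of these genes are immediate early genes, which growth factors such as EGF induce within minutes through ERK and the serum response factor, without new protein synthesis, and whose transcripts decay fast. Jun is the strongest activator of the Jun proteins, Junb is often a weaker activator or an antagonist of Jun, and Jund is expressed more constantly and is linked to restrained growth. In the intestine, Jun and Fos proteins act in crypt growth, in repair and in tumours.

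A normalized count is the number of reads on a gene divided by the size factor of the library. The libraries held between 15804709 and 26957612 reads. Both targeted genes were lower after 4-OHT (limma-trend, adjusted p = 3.2e-12 for Prkcz and 8.1e-04 for Prkci). Prkcz read 880, 904 and 954 in vehicle libraries and 287, 265 and 290 in 4-OHT libraries, which is -1.70 on the log2 scale (SE 0.08). Prkci read 3603, 3526 and 3430 against 2869, 3105 and 3089, which is -0.22 on the log2 scale (SE 0.05). The epithelial markers Epcam, Cdh1, Vil1, Cdx2, Krt8, Krt20, Car1 and Muc2 were all detected in every library. The sum of the epithelial list, most of it Krt8, moved with the groups, from 11692 to 12058 CPM (reads scaled to the library total) in vehicle libraries to 14817 to 15834 CPM in 4-OHT libraries. 4-OHT replicates 2 and 3 stood apart in transcripts of other tissue. A list of 8 Paneth cell and ileal genes summed to 60.2 and 44.1 CPM there, against 7.80 to 14.1 in the other libraries, and 5 smooth muscle genes summed to 2.81 and 5.57 against 0.147 to 0.571. Fibroblast genes reached 9.71 CPM in 4-OHT replicate 3, against 0.297 to 1.08 in the others. Immunoglobulin genes held 204 and 62 reads in these libraries and at most 1 elsewhere. The immune list (7.47 to 11.7 CPM) and the endothelial list (0 to 0.455) did not set these libraries apart. The part of the epithelial sum and of this material in the results below was not tested. The comparison was repeated without both 4-OHT libraries that stood apart, where Junb, Jund and Ier2 stayed past the threshold at 0.43, 0.55 and 0.19 on the log2 scale.

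All 10 members had a mean normalized count of 10 or more and so entered the test. Of these, 4 were higher in 4-OHT organoids with an adjusted p-value under 0.05, namely Jund, Junb, Ier2 and Fos, and 0 were lower (limma-trend with Benjamini-Hochberg adjustment over 13210 rows, and also 0 with edgeR, with DESeq2 and at an unadjusted limma p-value under 0.05). Across all rows tested, 43.6% were called in either direction, 22.7% as higher and 21.0% as lower, so the share of members called in either direction (40%) was near that of all rows, and the share called as higher (40%) was above it. The groups did not overlap for 4 of the 10 members, against 52.1% of all rows tested. The median log2 fold change of the members was 0.10, beside -0.0054 for all rows tested. Fold changes are on the log2 scale of the normalized count plus 1, which understates changes of low genes. In bulk RNA, more cells that express a gene and more RNA per cell cannot be told apart.

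**Figure D1:**
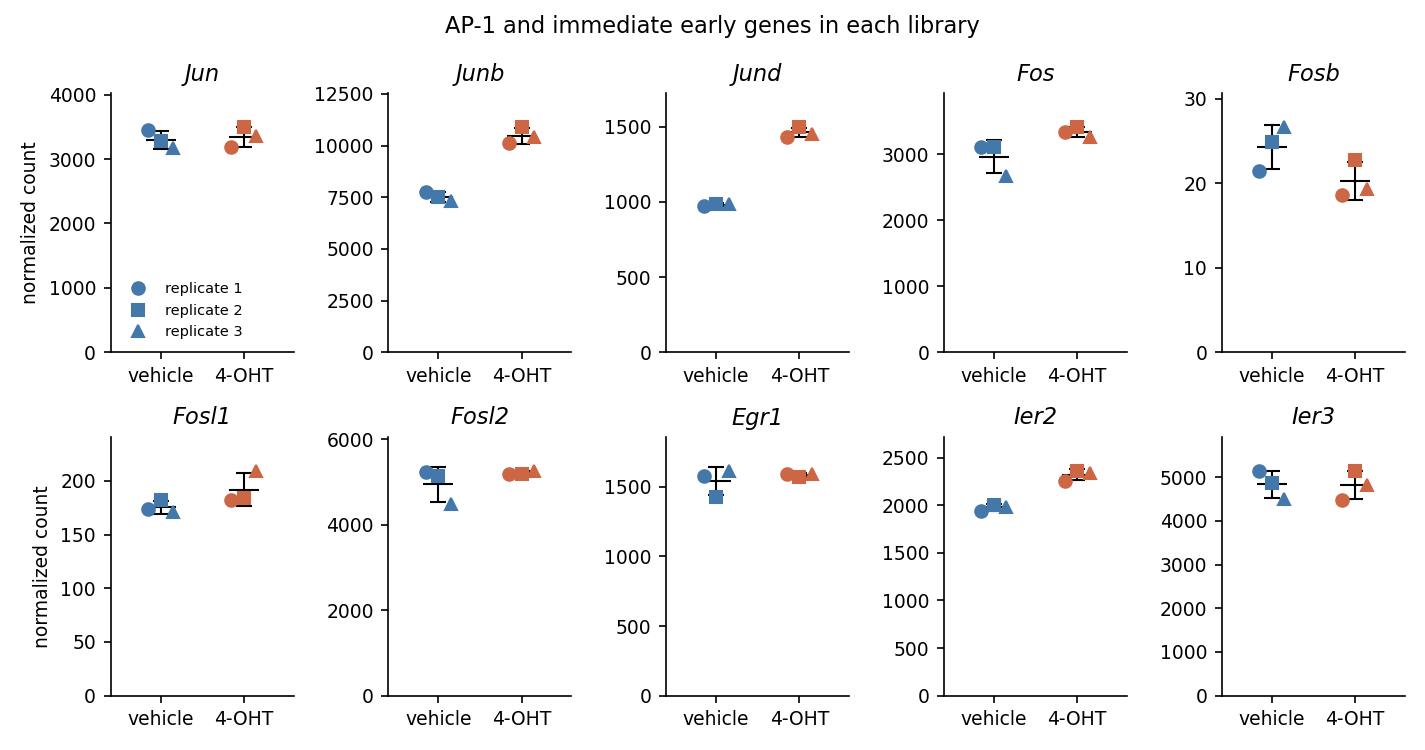
Normalized count (vertical axis, from 0) of each member in every vehicle (blue) and 4-OHT (orange) library, with a marker shape per replicate number and the mean and SD of the group in black. Junb, Jund, Ier2 and Fos have no overlap between groups, while the groups of the other 6 members overlap.

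Junb and Jund had the largest fold changes of the members. Junb read 7748, 7507 and 7293 in vehicle replicates 1, 2 and 3 and 10114, 10887 and 10424 in 4-OHT replicates 1, 2 and 3. Every 4-OHT library was above every vehicle library, by a gap wider than the range within either group. The mean was 7516 ± 228 in vehicle and 10475 ± 389 in 4-OHT organoids (SD, n = 3 each). On the log2 scale this is a rise of 0.48 (SE 0.04, 95% interval 0.39 to 0.57, limma adjusted p = 3.7e-08), which is 1.39-fold. This change lay at the 91.1 percentile of all rows tested.

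Jund read 974, 987 and 985 in the vehicle libraries and 1434, 1497 and 1455 in the 4-OHT libraries. The groups were far apart, and the vehicle values had a coefficient of variation of 0.737%, the smallest of any member in either group. The mean was 982 ± 7.24 in vehicle and 1462 ± 32.0 in 4-OHT organoids (SD, n = 3 each). On the log2 scale this is a rise of 0.57 (SE 0.05, 95% interval 0.46 to 0.69, limma adjusted p = 6.2e-08) or 1.49-fold, at the 93.4 percentile.

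Jun, the founding member of the family, did not pass the test. It read 3447, 3280 and 3173 in vehicle libraries and 3187, 3494 and 3355 in 4-OHT libraries, so that the groups overlapped over most of their range. The mean was 3300.1 ± 138 in vehicle and 3345 ± 154 in 4-OHT organoids (SD, n = 3 each). The log2 fold change was 0.02 with a 95% interval of -0.08 to 0.12 (limma adjusted p = 0.78). A change of Jun as large as that of Junb or Jund lies outside this interval.

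Ratios within a library do not depend on the size factors. The ratio of Junb to Jun normalized counts was 2.25, 2.29 and 2.30 in vehicle libraries and 3.17, 3.12 and 3.11 in 4-OHT libraries, a difference of 0.46 on the log2 scale. The ratio of Jund to Jun was 0.283, 0.301 and 0.311 in the former and 0.450, 0.428 and 0.434 in the latter, a difference of 0.55. The ratio of Jund to Junb moved less, from 0.126, 0.132 and 0.135 to 0.142, 0.137 and 0.140, a difference of 0.09. Of 7 ratios between members compared (also Fos to Fosl2, Fos to Jun, Ier2 to Ier3 and Ier2 to Egr1), each had no overlap between groups, with an exact two-sided permutation p = 0.10 and an adjusted p = 0.10. That is the smallest p that 3 libraries against 3 can give, so this design cannot take a single ratio below it.

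**Figure D2:**
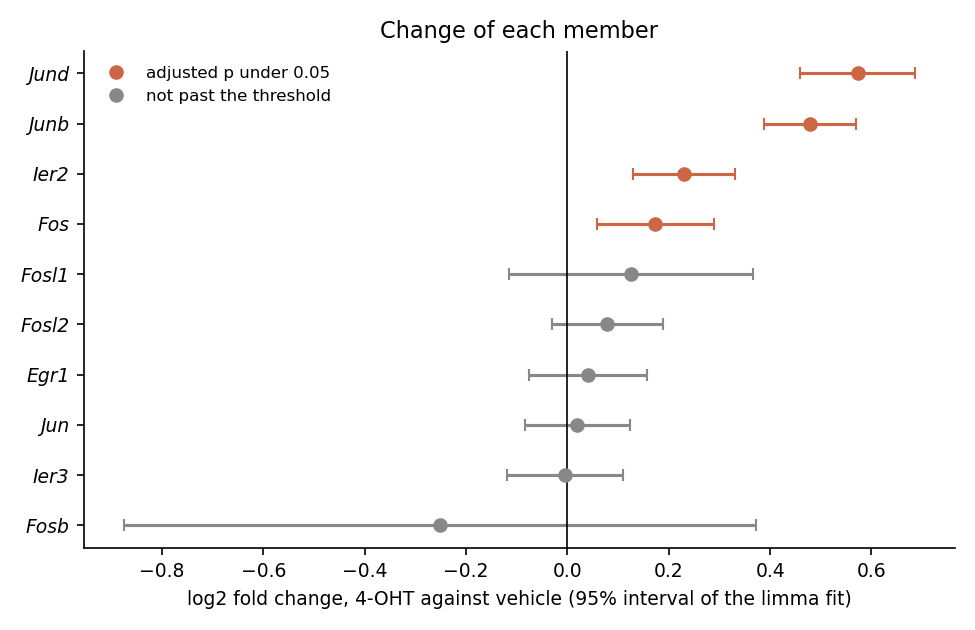
Log2 fold change of 4-OHT against vehicle for each member (horizontal axis) with the 95% interval of the limma fit over 3 libraries per group. Orange points passed the adjusted threshold (Jund 0.57, Junb 0.48, Ier2 0.23 and Fos 0.17), and the intervals of the 6 grey members include 0.

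Junb and Jund, together with Ier2, lie on chromosome 8, and these 3 of the 4 higher members are the only members there. The 723 rows tested on that chromosome had a median log2 fold change of -0.0047 and 23.8% of them were called as higher, close to the values over all rows. In the GENCODE vM21 annotation a processed transcript of Junb overlaps the end of Prdx2, a peroxiredoxin gene, on the other strand. Whether the counting used strand is not given in the sources used here. Prdx2 itself read 3130.1, 3308 and 3460 in vehicle libraries and 4254, 4405 and 4087 in 4-OHT libraries (log2 fold change 0.37), and its part in the Junb count was not tested. Jun overlaps the antisense gene Junos, which read 34.1 to 52.5 in all 6 libraries, far under the Jun values. Jund overlaps an antisense gene, Gm11175, which was not analysed here.

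The stretches just before the annotated starts of Jun, Junb and Fos are shown because Jun did not pass the test while Junb and Fos did, and because growth factor control of these genes is known to act near their starts. They are the 150 bases before each start from RefSeq (build GRCm38.p6, not the build that the labels name), written in the direction of transcription, 5′ to 3′. Capitals mark TGACG, the core of sites bound by CREB and ATF proteins, TGACATCA, a relative of it that Jun and ATF proteins bind, and CCAAT, the box bound by NF-Y.
Jun (chr4:95052223-95052372, minus strand): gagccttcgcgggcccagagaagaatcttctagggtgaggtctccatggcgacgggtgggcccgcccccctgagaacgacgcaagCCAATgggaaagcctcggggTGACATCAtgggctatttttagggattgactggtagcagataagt
Junb (chr8:84978749-84978898, minus strand): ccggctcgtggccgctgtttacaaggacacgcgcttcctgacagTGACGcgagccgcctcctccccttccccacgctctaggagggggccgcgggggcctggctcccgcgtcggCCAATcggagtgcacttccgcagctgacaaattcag
Fos (chr12:85473740-85473889, plus strand): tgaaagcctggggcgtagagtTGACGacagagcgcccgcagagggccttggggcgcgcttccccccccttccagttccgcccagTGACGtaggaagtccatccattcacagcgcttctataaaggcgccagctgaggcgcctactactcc
Each motif was searched on both strands, and TGACG also lies within the longer CREB site TGACGTCA. TGACG began 106 bases before the start in Junb and 129 and 66 bases before it in Fos, and it was found in 13.3% of the 32851 RefSeq windows of this length. TGACATCA began 45 bases before the start of Jun and was found in 2.32% of all windows. CCAAT was present in Jun and Junb and in 24.5% of all windows. Of the 7 members with an entry (not Fosl1, Egr1 or Ier2), 3 held TGACG, namely Fos, Fosb and Junb. Of these, Fosb did not pass the test. Jund, the member with the largest change among those called, held none of the marked motifs in its window, which is not shown. None of the 7 held the AP-1 site TGANTCA (4.24% of all windows) or a CArG box, the serum response factor site (0.916% of all windows), within these 150 bases. A match of letters is a description and not a site, and the part of these stretches in the differences between groups was not tested.

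The Fos genes showed smaller differences. Fos, the prototype immediate early gene, read 3107, 3101 and 2673 in vehicle libraries and 3329.8, 3406 and 3259 in 4-OHT libraries. The groups did not overlap, but vehicle replicate 3 was far below the other vehicle libraries and they were closer to the 4-OHT values. The mean was 2960.4 ± 249 in vehicle and 3332 ± 73.5 in 4-OHT organoids (SD, n = 3 each). On the log2 scale this is a rise of 0.17 (SE 0.06, 95% interval 0.06 to 0.29, limma adjusted p = 0.015) or 1.13-fold. Without vehicle replicate 3 it was 0.10 and no longer passed (limma adjusted p = 0.10). Without 4-OHT replicates 2 and 3 it was 0.17 with an adjusted p of 0.11.

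Fosl2, a Fos-related partner of Jun with a longer-lived product than Fos, read 5239, 5134 and 4480.5 in vehicle libraries and 5191, 5191 and 5268 in 4-OHT libraries. The low value was again vehicle replicate 3, and the groups overlapped. Its log2 fold change was 0.08 with a 95% interval of -0.03 to 0.19 (limma adjusted p = 0.24). The ratio of Fos to Fosl2 was 0.593, 0.604 and 0.597 in vehicle libraries and 0.641, 0.656 and 0.619 in 4-OHT libraries, so that vehicle replicate 3 did not stand apart in the ratio.

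Fosl1, which encodes FRA1, a Fos-related protein without the strong activation domain of Fos, read 174, 182 and 171 in vehicle libraries and 182, 185 and 209 in 4-OHT libraries. 4-OHT replicate 1 lay inside the vehicle range and 4-OHT replicate 3 well above it. The log2 fold change was 0.13 with a 95% interval of -0.12 to 0.37 (limma adjusted p = 0.40). Ccdc85b, which overlaps Fosl1 on the other strand in the annotation, read 447 to 527 and had a log2 fold change of -0.03.

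Fosb was low in every library, with 23, 35 and 22 reads in vehicle libraries and 18, 22 and 17 reads in 4-OHT libraries. The normalized counts were 21.5, 24.8 and 26.6 against 18.6, 22.8 and 19.4, with overlap between groups. The log2 fold change of -0.25 carried a 95% interval of -0.88 to 0.37 (limma adjusted p = 0.53), so a fall or a rise of moderate size would not have been detectable at this depth.

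Among the other immediate early members, Ier2 was higher. Ier2, a small nuclear protein induced by growth factors, read 1935, 2006 and 1985 in vehicle libraries and 2252, 2361 and 2338 in 4-OHT libraries, with no overlap. The mean was 1975 ± 36.6 in vehicle and 2317 ± 57.5 in 4-OHT organoids (SD, n = 3 each). On the log2 scale this is a rise of 0.23 (SE 0.05, 95% interval 0.13 to 0.33, limma adjusted p = 6.3e-04) or 1.17-fold.

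Egr1, the zinc finger factor induced by ERK and serum response factor, read 1578, 1429 and 1615 in vehicle libraries and 1592, 1567 and 1589 in 4-OHT libraries. All 3 4-OHT values lay inside the vehicle range. The log2 fold change was 0.04 with a 95% interval of -0.08 to 0.16 (limma adjusted p = 0.59). Ier3, a stress-induced gene linked to cell survival and ERK signalling, read 5130.4, 4873 and 4505 in vehicle libraries and 4486, 5146 and 4830 in 4-OHT libraries, a nearly complete overlap. Its log2 fold change was -0.0048 with a 95% interval of -0.12 to 0.11 (limma adjusted p = 0.95). For Jun, Egr1 and Ier3, the sign of the fold change turned in some alternative fits, none of which passed the threshold.

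Some libraries were low or high in their group for most members. Vehicle replicate 3, which held the fewest reads, had the lowest vehicle value for 6 of the 10 members. 4-OHT replicate 1 was the lowest 4-OHT library for 7 of 10, and 4-OHT replicate 2 the highest for 7 of 10. For the 8 members with a normalized count above 900 in every library, the coefficient of variation within a group was between 0.737% and 8.41%.

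Levels of different genes were compared per kilobase of transcript, with the length of the principal GENCODE vM21 transcript (1809 bases for Junb, 3189 for Jun, 1668 for Jund, 1131 for Ier3 and 6537 for Fosl2). In vehicle organoids the order of the normalized count per kilobase was Ier3 (4276 ± 278), Junb (4155 ± 126), Fos (1404 ± 118), Ier2 (1298 ± 24.0), Jun (1035 ± 43.4), Fosl2 (757 ± 62.8), Jund (589 ± 4.34), Egr1 (344 ± 21.9), Fosl1 (94.2 ± 3.25) and Fosb (6.43 ± 0.695), each as mean and SD over 3 libraries. Ier3 and Junb overlapped between libraries, as did Fos and Ier2, while the other neighbours in this order had no overlap. In 4-OHT organoids the levels per kilobase were 5791 ± 215 for Junb and 4262 ± 292 for Ier3, with Junb now above Ier3 in every library. Jund, at 876 ± 19.2, lay above Fosl2, at 798 ± 6.80, in every 4-OHT library and below it in every vehicle library. Fos and Ier2 still overlapped, and the rest of the order was the same.

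**Figure D3:**
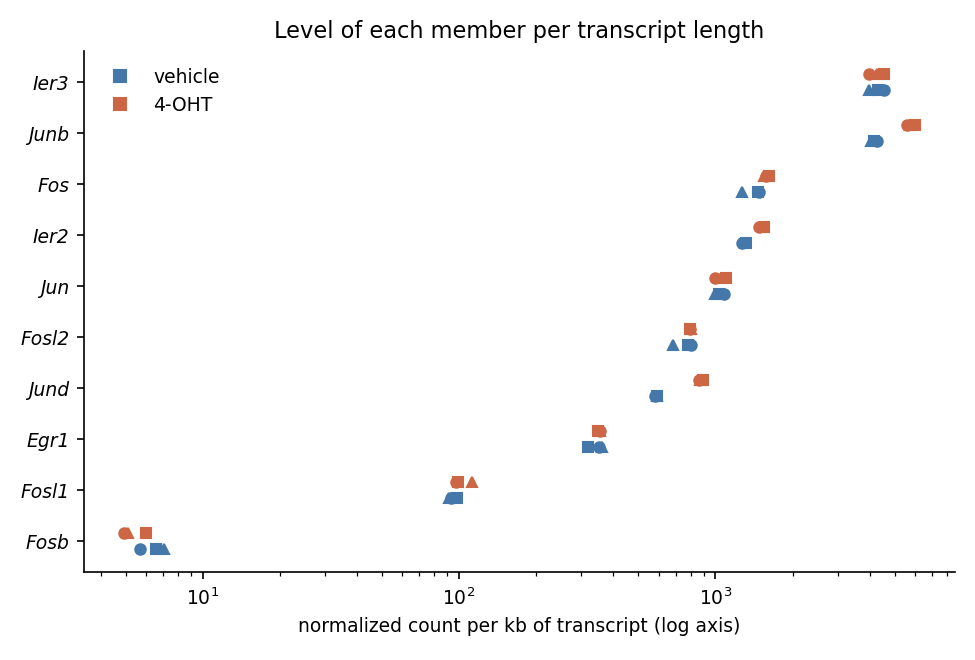
Normalized count per kilobase of transcript (log axis) for each member in every vehicle (blue) and 4-OHT (orange) library, with circles, squares and triangles for replicates 1, 2 and 3. Junb moves from the level of Ier3 to above it, and Jund from below Fosl2 to above it, while Fosb sits near 6 in both groups.

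On the same scale Junb made up most of the Jun family transcripts. Its share of the summed level per kilobase of Jun, Junb and Jund was 72.0%, 71.9% and 71.8% in vehicle libraries and 75.0%, 75.1% and 75.0% in 4-OHT libraries. The share of Jund was 10.2% ± 0.354 (SD, n = 3) in vehicle and 11.4% ± 0.170 (SD, n = 3) in 4-OHT organoids. The share of Jun was 17.9% ± 0.240 and 13.6% ± 0.154 in the same order. The summed level itself was 5779 ± 166 in vehicle and 7716 ± 282 in 4-OHT organoids. In the Fos family, Fos held 62.1% ± 0.262 of the summed level in vehicle and 63.5% ± 0.847 in 4-OHT organoids, Fosl2 33.5% ± 0.255 and 32.1% ± 0.530, Fosl1 4.18% ± 0.272 and 4.14% ± 0.354, and Fosb under 0.4% in every library. These shares describe transcripts, not proteins or dimers.

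The genes around the members were described in lists by role. Of 12 other partners in AP-1 and related dimers, 9 were tested, 3 were higher and 3 lower, with a median log2 fold change of -0.02. The share called in either direction was 66.7%, beside 43.6% of all rows, and the share called as higher 33.3%, beside 22.7%. Those that rose were Batf2 (0.79, SE 0.22, adjusted p = 0.0059 by limma), Maff (0.56) and Mafk (0.46). Maff and Mafk are small Maf proteins, which bind DNA but lack an activation domain of their own. Maff read 825, 877 and 732 in vehicle libraries and 1034, 1339 and 1237 in 4-OHT libraries, and its log2 fold change was 0.35 without 4-OHT replicates 2 and 3. Jdp2, a Jun dimerization partner that represses AP-1, was 906 ± 22.7 in vehicle and 679 ± 79.8 in 4-OHT organoids (SD, n = 3 each) and fell by 0.42 on the log2 scale (SE 0.08, adjusted p = 1.3e-04 by limma). Atf3, a stress-induced partner of Jun, fell by 0.36. Atf7 passed narrowly in the limma fit (-0.17, adjusted p = 0.047) and did not pass with DESeq2 (adjusted p = 0.072). Batf and Batf3 had too few counts to be tested.

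Of 34 other immediate early genes, 31 were tested (not Egr3, Egr4 and Nr4a3). Of these 16 were higher (51.6%, beside 22.7% of all rows) and 1 was lower, with a median log2 fold change of 0.39. Ccn1, a secreted matricellular protein and a known serum response factor and YAP target, read 628, 665 and 722 in vehicle libraries and 1633, 1816 and 1693 in 4-OHT libraries, with no overlap. It rose by 1.35 on the log2 scale (SE 0.06, adjusted p = 6.9e-12 by limma). Rhob, a small GTPase, rose by 0.82, Btg2, an antiproliferative p53 target, by 0.81, and Plk2, a polo-like kinase, by 0.76. The gene that fell was Ppp1r15a (-0.54), a phosphatase subunit of the integrated stress response. With edgeR, and at an unadjusted limma p-value under 0.05, 2 were lower, the other being Klf4 (-0.12).

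Of 20 kinases and serum response factor cofactors that act upstream of the members, 19 were tested (not Mapk10, which has no row). Of these, 6 were higher (31.6%, beside 22.7% of all rows) and 2 lower, and the median was 0.01. The share called in either direction (42.1%) was near the 43.6% of all rows. Elk3, a ternary complex factor, rose by 0.56, Map2k4, a kinase that activates JNK and p38, by 0.51, Mapk3, which encodes ERK1, by 0.39, and Srf, the serum response factor, by 0.25. The 2 lower genes were Mrtfb (-0.18, limma adjusted p = 0.027) and Rps6ka3 (-0.17, limma adjusted p = 0.0086). The kinases Mapk14 and Map2k1 had log2 fold changes of -0.05 and -0.0087 that did not pass the threshold. Without 4-OHT replicates 2 and 3, 5 of the list passed.

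Of 13 genes that restrain immediate early expression, 12 were tested (not Dusp2). Of these, 9 were higher (75%, beside 22.7% of all rows) and 0 were lower, with a median of 0.26. Also 0 were lower with edgeR, with DESeq2 and at an unadjusted limma p-value under 0.05. Dusp5, a nuclear phosphatase of ERK, read 496, 497 and 462 in vehicle libraries and 866, 1046 and 951 in 4-OHT libraries, with no overlap. It rose by 0.97 on the log2 scale (SE 0.08, adjusted p = 4.3e-09 by limma). Dusp10, a phosphatase of JNK and p38, rose by 0.95, Dusp7 by 0.53 and Dusp4 by 0.43, and Dusp4 was 0.28 without 4-OHT replicates 2 and 3. Fbxw7 and Cop1, subunits of the ubiquitin ligases that turn over Jun, had log2 fold changes of 0.20 and 0.15 that passed in the limma fit, while Fbxw7 did not pass with DESeq2 (adjusted p = 0.052). The brakes called numbered 8 with DESeq2 and 6 without 4-OHT replicates 2 and 3. Nab1 and Nab2, which repress Egr1 protein, had log2 fold changes of 0.04 and 0.07 that did not pass.

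Of 21 genes known as AP-1 targets in epithelial or tumour cells, 18 were tested (not Mmp9, Mmp10 and Mmp13). Of these, 14 were higher (77.8%, beside 22.7% of all rows) and 2 lower, with a median of 0.39. Ptgs2, the inducible cyclooxygenase, read 605, 719 and 661 in vehicle libraries and 1932, 1951 and 1859 in 4-OHT libraries, with no overlap. It rose by 1.53 on the log2 scale (SE 0.06, adjusted p = 1.5e-12 by limma). Plau, the urokinase, rose by 1.59, with means of 126 ± 8.27 and 380.0 ± 22.2 (SD, n = 3 each), and Spp1, osteopontin, by 1.32 from a low level of 25.7 ± 7.31. Lamb3 and Lama3, which encode laminin chains, rose by 0.48 and 0.38. Mmp7, matrilysin, fell by 0.28. Most of these targets answer to several other transcription factors as well.

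**Figure D4:**
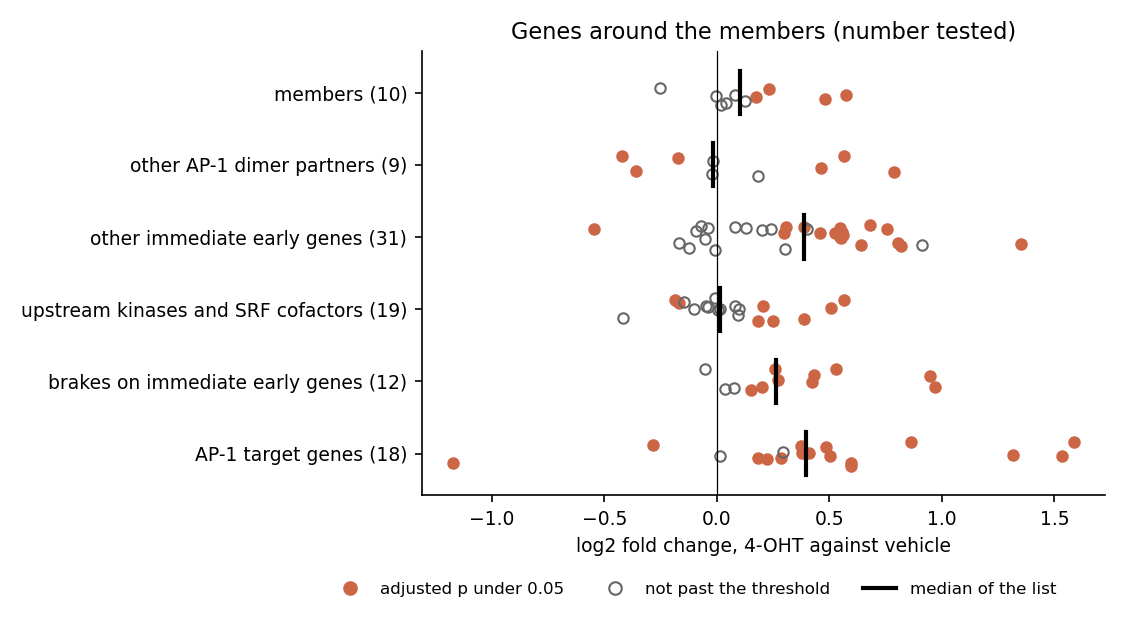
Log2 fold change of 4-OHT against vehicle (horizontal axis) for every tested gene of each list, with genes past the adjusted threshold filled in orange, the others open, and the median as a black bar. The medians are 0.10 for the members, -0.02 for the other dimer partners, 0.39 for the other immediate early genes, 0.01 for upstream kinases and cofactors, 0.26 for the brakes and 0.39 for the AP-1 targets. Vertical scatter within a list has no meaning.

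The rows whose profile over the 6 libraries was most like that of Fos, by the root mean square difference of the log2 values centred on their mean, were Wipi2 (0.0080), Dok4 (0.021) and Skil (0.022), out of 13200 rows compared. Those most like Jun were Mindy2 (0.011), Septin8 (0.015) and Ints5 (0.021). These profiles move little between libraries, and the likeness is a description of 6 libraries only.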

How the data were processed

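RNA from 6 organoid libraries (3 vehicle, 3 4-OHT) was analysed from 1 deposited table. The authors divided the reads of each gene by 1 size factor per library, so the deposited signal is a normalized count, neither scaled to a fixed total nor corrected for length. The submitters' processing notes name STAR, DESeq2, GRCm39 and mm39. The counting tool and annotation are not given in the sources used here. In every library 100% of values were whole multiples of 1 step (within 0.1), and whole reads were recovered from these steps (15804709 to 26957612 per library). The precision of low genes is limited by counting error.

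Groups came from the sample titles. The main test was limma-trend (limma 3.58.1, R 4.3.3) on the log2 normalized count with a pseudocount of 1, for 13210 rows whose mean was 10 or more. P-values were adjusted by the Benjamini-Hochberg method and called under 0.05. Alternatives were pseudocounts of 0.1 and 10, no filter, a minimum mean of 50, TMM factors, quantile normalization, a replicate block, leaving out each library or both 4-OHT replicates 2 and 3, and edgeR 4.0.16 and DESeq2 1.42.0 on recovered reads (edgeR called 5780 rows). On simulated counts for this comparison (13210 genes), limma recovered 86 of 100 genes changed by 1 and 66 of 100 changed by 0.5 on the log2 scale, with 9 false calls. Only these genes were changed there, drawn from all levels, while 43.6% of the real rows were called. The adjusted threshold depends on that share, and 8 of the 10 members had counts above 900. The recovered shares therefore do not give the power for the members.

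The members and gene lists were chosen with earlier results of these data known. Of each list, the 4 called genes with the largest absolute change were named, and for Fos and Jun the 3 rows with the nearest profile. Any other gene was named with its values known. Some genes counted in the lists are not reported here by name. The 4 gene symbols on more than one row were kept apart. Between libraries of a group the chi-square of the reads was 3.35 to 6.04 per degree of freedom, so none was a copy of another.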

Additional observations from a re-analysis of the deposited data

How the results depend on the processing

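Over 16 alternatives, Junb (0.39 to 0.50), Jund (0.55 to 0.59) and Ier2 (0.19 to 0.25) stayed past the threshold, and Fos passed in 13 (0.10 to 0.21). The number of members called as higher was 4, or 3 with quantile normalization, without vehicle replicate 3, and without 4-OHT replicates 2 and 3 together, and 0 were lower in any. With quantile normalization Fos was at 0.13 (limma adjusted p = 0.071), and the signs of Jun (-0.021) and Egr1 (-0.00032) turned. When libraries were left out singly the sign turned for Jun (-0.012 to 0.054), Egr1 (-0.012 to 0.076), Ier3 (-0.055 to 0.046), Mindy2 (-0.017 to 0.046) and Ints5 (-0.0035 to 0.059). Without 4-OHT replicates 2 and 3 it turned for Jun (-0.049), Mindy2 (-0.039), Septin8 (-0.013) and Ints5 (-0.031), and the upstream kinases and cofactors called went from 8 to 5. In that fit the single 4-OHT library is assumed to vary like the vehicle libraries. For all of these changes the cause was not tested, and none of the turned values passed the threshold. The change of the Junb to Jun ratio, an alternative added after seeing the data, was 0.41 to 0.48, and that of the Jund to Jun ratio 0.52 to 0.59. The rows called in all numbered 3848 to 5780. With the replicate block 5637 rows and 4 members passed, and no call of a member changed. Same-numbered libraries had correlations of -0.0074, 0.030 and -0.020 between their deviations, so the numbers were not taken as pairs. Depth limits Fosb most, and it has no value at a minimum mean of 50.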

Other observations

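Heat shock genes, which handling and protein stress induce, were described for comparison with the immediate early genes. Of 7 tested, 4 were higher (57.1%, beside 22.7% of all rows) and 0 were lower by limma, with a median log2 fold change of 0.23. At an unadjusted p-value under 0.05, and with edgeR, 1 was lower (Hsph1), and with DESeq2 0. Hspb1, a small heat shock protein, read 25.2, 43.3 and 47.2 in vehicle libraries and 123, 172 and 154 in 4-OHT libraries, and rose by 1.96 on the log2 scale (SE 0.22, adjusted p = 4.7e-07 by limma). Hspa1b, the inducible HSP70, rose by 0.51 (limma adjusted p = 4.4e-06), Dnaja1 by 0.36 and Dnajb1 by 0.22. Hsph1, at -0.16, and Hspa1a, at 0.23, did not pass in the limma fit. The reads of Hspa1a and Hspa1b, near-identical copies, can be split between them by the counting, so their single values are uncertain.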
